A study of Homo sapiens with 52 samples.

Results

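The genes described here are 9 genes of antigen presentation by major histocompatibility complex (MHC) class I: the heavy chains HLA-B, HLA-C, HLA-E and HLA-F, the light chain gene B2M, the peptide transporter genes TAP1 and TAP2, the peptide editor gene TAPBP and the immunoproteasome gene PSMB9. They were taken by gene name from the 78894 genes of the gene-level tables, and all 9 were found and tested. Bulk RNA-seq was run on 52 samples in 18 groups of cell line and treatment from 3 established human breast cancer cell lines of the claudin-low class, SUM159PT, MDA-MB-231 and HS578T. NRP1, a transmembrane co-receptor, was knocked down in each line. By transient transfection, siRNA was given at 20 nM, either siNRP1#3, siNRP1#5 or a non-targeting control (siNT), and RNA was taken 72 h later. By stable lentiviral expression, cells carried the hairpins shNT, shNRP1#3 or shNRP1#5, were selected with puromycin and were harvested 48 h after seeding. Every group held 3 replicates, except that SUM159PT siNRP1#5 had only replicates 2 and 3, and for HS578T shNRP1#3 only replicates 1 and 2 were used, since the authors left out an outlier in each.

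Several features limit the groups as models. The siRNA and the hairpin numbered #5 share their target sequence, which lies in transcripts of both the membrane-bound and the soluble form, whereas those numbered #3 target the transmembrane form with sequences that differ between siRNA and hairpin. Transduced cells were selected together, and the replicates of the hairpin groups were consecutive passages of the selected cells, so that p-values measure the spread between these libraries. Delivery, selection and harvest time therefore differed together between the siRNA and the hairpin groups and cannot be told apart. The study compared knockdown with control to find what depends on NRP1.

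MHC class I molecules carry short peptides from inside the cell to its surface, where CD8+ T cells read them. Peptides are cut by the proteasome, of which PSMB9 (LMP2) is a catalytic subunit of the interferon-induced form, and are pumped into the endoplasmic reticulum by the TAP1-TAP2 dimer. Tapasin (TAPBP) holds the empty heavy chain near this pump and selects well-bound peptides, and the heavy chain reaches the surface together with beta-2 microglobulin (B2M). HLA-B and HLA-C are classical heavy chains, HLA-E presents leader peptides to receptors of natural killer cells, and HLA-F is a non-classical chain with low surface levels in many cells. Interferons raise many of these genes through STAT and IRF factors, and NF-kappaB, the RFX complex and NLRC5 act at class I promoters. Tumour cells often carry less class I, and its level bears on recognition by T cells and natural killer cells.

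On GRCh38 (GENCODE 44), 8 of the 9 genes lie on the short arm of chromosome 6 and B2M lies at chr15:44711358-44718851 on the plus strand. In chromosome order, HLA-F lies at chr6:29722775-29738528 (plus strand), HLA-E at chr6:30489509-30494194 (plus), HLA-C at chr6:31268749-31272130 (minus) and HLA-B at chr6:31353872-31367067 (minus). A cluster of antigen processing genes follows, with TAP2 at chr6:32821833-32838739 (minus), PSMB9 at chr6:32844136-32859851 (plus) and TAP1 at chr6:32845209-32853816 (minus). TAPBP lies at chr6:33299694-33314284 (minus). TAP1 and PSMB9 overlap on opposite strands, so their values rest on the stranded counting of these libraries. The values count reads over exons of the whole gene. HLA genes also differ in sequence between cell lines and resemble one another, so reads of one heavy chain may have been split among several.

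RefSeq upstream sequence (GRCh38.p14) was read for 8 of the 9 genes, and HLA-E had no entry. The stretches shown are the longest parts of the 250 bases before the start site that no GENCODE transcript annotates as untranslated region. HLA-B, HLA-C and HLA-F are shown, with B2M and TAP1 as 2 examples of partners with interferon-type letters. TAP2 and TAPBP held such letters too and are not shown. Capitals mark matches to the motifs searched, which were GAAANNGAAA, the core of the interferon-stimulated response element, GGGNNTTCC, a kappaB-like motif, and TGACGC, a CRE-like half-site of class I promoters. They come from chr6:31357294-31357429 (minus strand) for HLA-B, chr6:31272106-31272342 (minus) for HLA-C, chr6:29723184-29723305 (plus) for HLA-F, chr15:44711324-44711508 (plus) for B2M and chr6:32853817-32853954 (minus) for TAP1.
HLA-B: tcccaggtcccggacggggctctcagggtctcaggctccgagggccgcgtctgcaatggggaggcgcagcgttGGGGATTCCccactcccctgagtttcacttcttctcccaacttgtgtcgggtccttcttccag
HLA-C: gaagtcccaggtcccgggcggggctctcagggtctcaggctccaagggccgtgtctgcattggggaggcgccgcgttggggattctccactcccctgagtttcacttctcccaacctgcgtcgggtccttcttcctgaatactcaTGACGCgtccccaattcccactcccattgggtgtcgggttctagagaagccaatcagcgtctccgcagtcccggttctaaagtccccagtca
HLA-F: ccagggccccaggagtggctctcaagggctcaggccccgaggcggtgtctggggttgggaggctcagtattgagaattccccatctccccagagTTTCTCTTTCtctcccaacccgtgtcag
B2M: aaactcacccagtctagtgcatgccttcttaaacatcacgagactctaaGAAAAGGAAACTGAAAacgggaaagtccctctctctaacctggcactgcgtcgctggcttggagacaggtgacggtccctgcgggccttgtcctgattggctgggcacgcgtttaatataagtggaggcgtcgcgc
TAP1: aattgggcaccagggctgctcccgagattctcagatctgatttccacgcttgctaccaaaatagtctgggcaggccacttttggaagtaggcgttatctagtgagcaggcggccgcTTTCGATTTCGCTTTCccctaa

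In the full windows of 300 bases (250 before and 50 after the start, both strands searched), GAAANNGAAA stood in 5 of the 8 genes, HLA-F, B2M, TAP1, TAP2 and TAPBP, and in 3.57% of 35116 promoters of the same length. B2M, TAP1 and TAPBP each held 2 overlapping copies, which in TAPBP lay at bases -20 to -11 and -14 to -5 from the start site. GGGNNTTCC stood in HLA-B, B2M and TAPBP and in 6.58% of all promoters. TGACGC stood in HLA-B, HLA-C and TAP2 and in 9.14%. One more motif, TTCNNNGAA, the letters of a STAT site, stood in 1 gene, at a second start site of TAP1, and in 7.66%. The PSMB9 window matched none of these letters. A match describes these letters in the window and no binding was measured.

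Libraries held between 25310443 and 72003442 counts (median 44804505), so most of the 9 genes were counted deeply. The exceptions were HLA-F, which had fewer than 10 counts in 7 libraries, all of HS578T, and PSMB9, whose lowest library held 50 counts. NRP1 fell in 11 of the 12 knockdown comparisons by edgeR's quasi-likelihood test, by between 0.70 (MDA-MB-231 siNRP1#3) and 4.88 (MDA-MB-231 siNRP1#5) on the log2 scale. For HS578T shNRP1#3 the NRP1 change was -1.59 with an adjusted p of 0.069. In MDA-MB-231, NRP1 itself was higher in shNT than in siNT by 1.23 ± 0.15 on the log2 scale (edgeR adjusted p = 1.68e-05). As for cell identity, the summed level of 4 genes that claudin-low cells express (VIM, ZEB1, SNAI1 and ITGA6) ranged from 1352 to 6168 TPM. The 5 genes that such cells lack (CLDN3, CLDN4, CLDN7, CDH1 and EPCAM) summed to 98.4 to 317.5 TPM in MDA-MB-231, against at most 38.9 in HS578T and 30.4 in SUM159PT, which goes against the label for MDA-MB-231 in part. Among 12 markers of immune, endothelial and stromal cells, whose summed level ranged from 11.7 to 353.5 TPM and was mostly CD68 at its highest (351.6 TPM), the B cell gene MS4A1 was at 0 in all 52 samples, the T cell gene CD3E was at 0 in 47, and PTPRC reached at most 13.1 TPM. A further B cell gene, CD79A, was at 0 in only 1 sample and reached 0.48 TPM. The T cell gene CD3D was at 0 in 29 and reached 1.55 TPM. The monocyte gene CD14 reached 23.1 TPM and the endothelial genes PECAM1 and VWF 15.9 and 1.4 TPM, and none of these was at 0 in any sample.

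The HS578T siNRP1#5 libraries stood apart. Genes that were all but silent in HS578T controls and high in MDA-MB-231 controls (3 genes) reached 22.6%, 22.7% and 12.0% of the level they have in MDA-MB-231, for replicates 1, 2 and 3. The same genes stood at 1.94% to 6.70% in HS578T siNRP1#3 and at 0.644% to 1.18% in siNT. Genes silent in HS578T and high in SUM159PT (11 genes) reached 6.74% in siNRP1#5 replicate 2. When reads were assigned to MDA-MB-231 at these shares, the assigned reads made up 81.0%, 100% and 63.3% of the HLA-B reads of the 3 libraries. Of the HLA-F reads they made up 100%, 100% and 77.8%, but of the B2M reads only 21.2%, 18.1% and 8.05%. For the 9 genes, the comparisons of these libraries with siNT and siNRP1#3 and the test across lines are therefore given also after that subtraction, while all other genes and the comparison of siRNA with hairpin are given as deposited. The estimate rests on 3 genes. Whether their reads came from MDA-MB-231 RNA or from HS578T cells that expressed these genes was not tested. Reads called MDA-MB-231 reads in HS578T are those assigned in this way. One MDA-MB-231 shNRP1#3 library, replicate 3, held 2.33% by SUM159PT genes and 1.90% by HS578T genes, and in all other groups the shares were at most 0.935%.

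**Figure D1:**
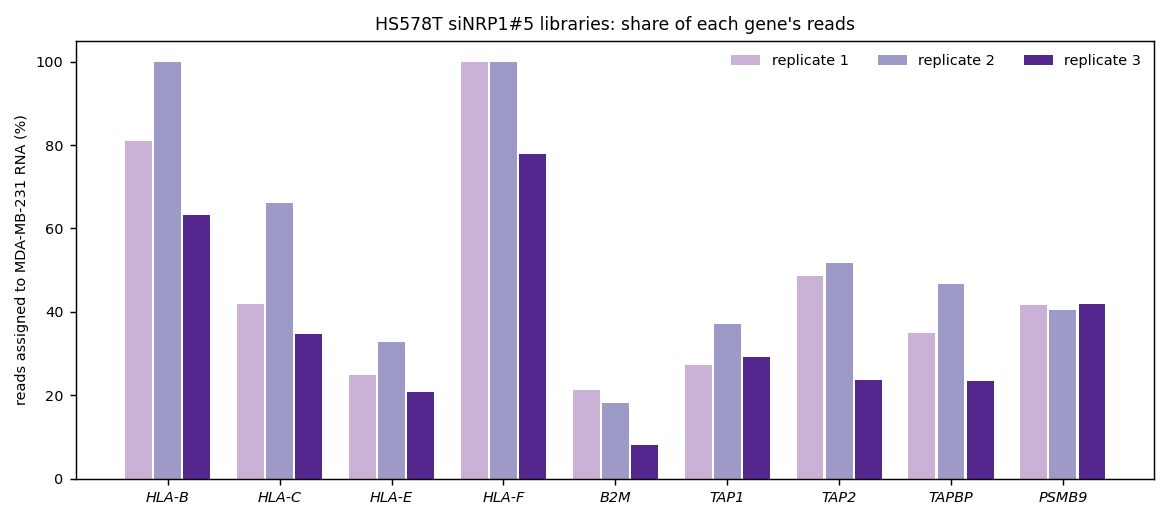
Share of the reads of each of the 9 genes that was assigned to MDA-MB-231 RNA in the 3 HS578T siNRP1#5 libraries, in percent on a linear axis from 0, with 1 bar per replicate. HLA-B and HLA-F are the highest, at 63.3% or more in every library, and B2M is the lowest, at 21.2% or less.

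In the control cells, most class I genes stood higher in SUM159PT and MDA-MB-231 than in HS578T. In bulk RNA, fewer cells of a kind and less RNA per cell cannot be told apart. TPM, a scale of transcript abundance corrected for transcript length and library size, allows levels to be set side by side between genes, and the values are mean ± SD over the 6 controls of a line (siNT and shNT, n = 6). B2M was the most abundant of the 9 in every line, at 507 ± 259.9 TPM in HS578T, 1216 ± 123 in MDA-MB-231 and 3624 ± 2396 in SUM159PT. HLA-B came next in SUM159PT (703 ± 483) and MDA-MB-231 (758 ± 154), whereas in HS578T it stood at only 42.0 ± 23.9 TPM, a mean lower than those of HLA-E (101 ± 52.2), HLA-C (61.3 ± 27.5) and TAPBP (58.9 ± 22.3), with overlapping ranges. HLA-F was the lowest of the 9 in MDA-MB-231 and HS578T, at 17.6 ± 4.23 and 0.660 ± 0.400 TPM, and reached 69.6 ± 65.1 in SUM159PT. In SUM159PT, TAP2 (25.3 ± 8.75) stood below HLA-F in siNT (18.9 against 109.9 TPM), whereas in shNT the order was the other way (31.7 against 29.3).

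The transporter genes differed in balance. TAP1 stood at 95.9 ± 42.5 TPM in SUM159PT against 25.3 ± 8.75 for TAP2, with ranges that did not overlap, while in MDA-MB-231 they stood at 77.8 ± 11.8 and 67.6 ± 10.7 and in HS578T at 18.2 ± 10.8 and 22.8 ± 8.04, with overlapping ranges in both. PSMB9 stood at 17.0 ± 7.38 TPM in HS578T, 45.8 ± 7.74 in MDA-MB-231 and 131 ± 49.6 in SUM159PT. The SUM159PT values of every class I gene but TAP2 were widely spread over the 2 kinds of control, with siNT above shNT.

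**Figure D2:**
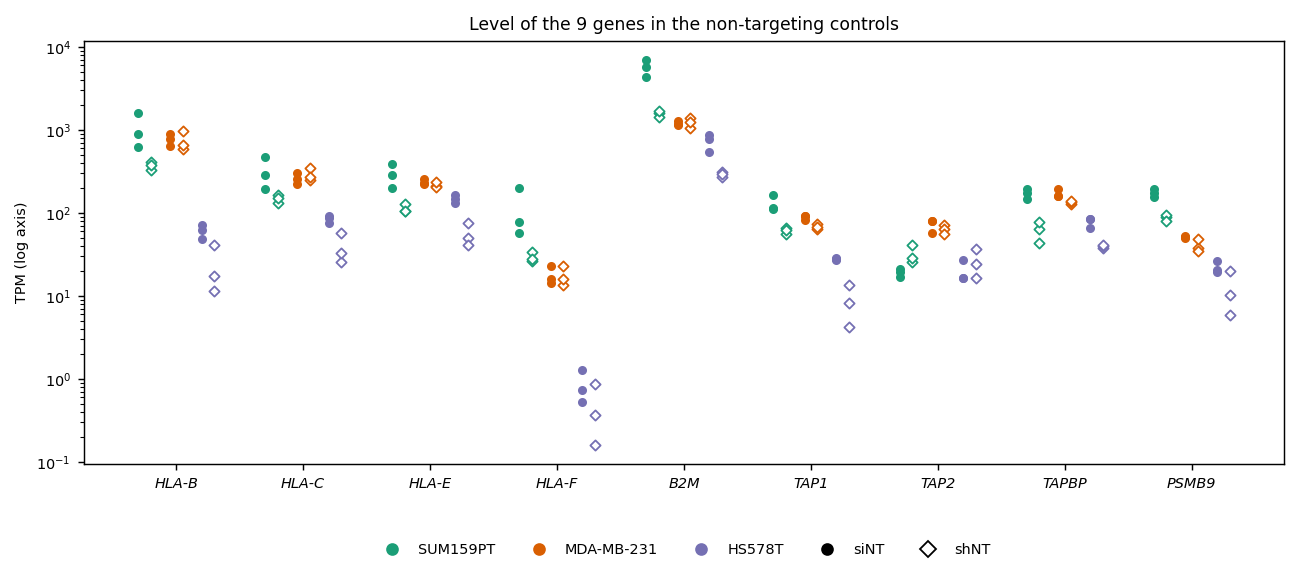
TPM of the 9 genes in each non-targeting control sample of the 3 cell lines on a log axis, with filled symbols for siNT and open symbols for shNT. HS578T lies lowest for HLA-B and HLA-F, and the SUM159PT samples split into siNT above shNT for every gene except TAP2.

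Between lines the controls were compared in one edgeR model of all 52 samples, on counts, so each fold compares one gene across lines. All 9 genes were lower in HS578T than in MDA-MB-231, among 23416 genes of which 34.9% were higher and 35.4% lower. HLA-F differed by a log2 value of -4.31 ± 0.41 and HLA-B by -3.50 ± 0.33 (edgeR adjusted p = 5.6e-12 and 5.03e-12), while PSMB9 differed by -0.70 ± 0.27 and HLA-E by -0.58 ± 0.21. In CPM, counts scaled to the size of each library, the siNT means of HS578T and MDA-MB-231 were close for HLA-E (366.9 and 359.8) and B2M (613.5 and 628.7), whereas the shNT means were 131.8 and 300.2 for HLA-E and 240.3 and 581.5 for B2M. Against SUM159PT, 8 of the 9 were lower in HS578T (all genes 29.8% higher and 33.7% lower), with HLA-F at -6.43 ± 0.44, HLA-B at -3.70 ± 0.33 and PSMB9 at -2.53 ± 0.29. TAP2 was the exception, at 0.03 ± 0.18 (edgeR adjusted p = 0.896). SUM159PT exceeded MDA-MB-231 in 4 genes (all genes 31.8% higher and 27.6% lower), HLA-F (2.12 ± 0.35), PSMB9 (1.83 ± 0.28), B2M (1.67 ± 0.17) and TAP1 (0.57 ± 0.23), and was lower in TAP2 (-1.14 ± 0.18). The TAP1 difference was lost with library totals only (adjusted p = 0.11), with limma on TPM (0.371) and without SUM159PT siNT replicate 2 (0.113), MDA-MB-231 shNT replicate 2 (0.0507) or siNT replicate 3 (0.0517). HLA-E and PSMB9 in HS578T against MDA-MB-231 were lost without HS578T shNT replicate 3 (adjusted p = 0.0564 and 0.087), and PSMB9 also without MDA-MB-231 shNT replicate 3 (0.0555). Without SUM159PT siNT replicate 2, HLA-E no longer differed between HS578T and SUM159PT (0.096).

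The 2 kinds of control also differed, with the most calls in SUM159PT. All levels from here on are CPM, counts scaled to the size of each library with TMM factors, which compare one gene between samples and not one gene with another. In SUM159PT, HLA-B stood at 1048, 2274 and 728 CPM in the 3 siNT libraries and at 369, 441 and 423 in the 3 shNT libraries. For B2M the values were 4489, 4448 and 2670 against 982, 859.6 and 1032 CPM. Both genes were lower in every shNT library than in any siNT library, by log2 differences of -1.75 ± 0.38 and -2.04 ± 0.35 (edgeR adjusted p = 0.0103 and 0.0038). In all, 8 of the 9 genes were lower in shNT, against 8.45% of all genes lower and 5.96% higher. TAP2 was the exception, at 0.58 ± 0.28 (edgeR adjusted p = 0.169). The count of calls was 5 without shNT replicate 1 or without siNT replicate 2, and 4 without shNT replicate 3. The PSMB9 call was lost without any 1 of these libraries but siNT replicate 3.

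In MDA-MB-231, 3 genes were lower in shNT, namely TAPBP (-0.57 ± 0.14), PSMB9 (-0.56 ± 0.15) and TAP1 (-0.53 ± 0.16), against 9.85% of all genes lower and 10.7% higher. With limma on log2(TPM + 1) none of these 3 was past the threshold, and 1 was without replicate 2 of either control. With the replicate number as a block, which pairs these libraries, TAP2 passed as well (adjusted p = 0.0455). In HS578T, 4 genes were lower in shNT, TAP1 (-1.66 ± 0.45), HLA-E (-1.47 ± 0.32), B2M (-1.33 ± 0.20) and TAPBP (-1.05 ± 0.20), against 8.8% of all genes lower and 9.14% higher. Levels of TAP1 in HS578T were 62.0, 71.2 and 73.5 CPM in siNT and 35.3, 20.1 and 9.83 in shNT, with no overlap. The TAP1 call in HS578T was lost without shNT replicate 2 or 3 or siNT replicate 2 (adjusted p = 0.0648, 0.0805 and 0.0536). Each knockdown was therefore compared only with its own kind of control.

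All calls among the knockdowns came with sequence #5, and all but 1 were decreases. Over 3 lines and both kinds of delivery, 22 of the 54 tests of the 9 genes for #5 were past the threshold and lower and 1 was higher, 47 of the 54 changes were negative and the median was -0.62 on the log2 scale. For #3, 0 of 54 tests were past the threshold by edgeR and 0 by DESeq2, 5 had an unadjusted p under 0.05, 33 changes were negative and their median was -0.07. These tests share controls and genes that move together, so they are not 54 separate pieces of evidence. Of all genes, 0.671% to 14.9% fell with #5 and 0.0305% to 14.3% with #3, depending on the comparison. In each line and form of delivery more of all genes fell with #5 than with #3. HLA-F and PSMB9 fell in 4 of 12 comparisons each, HLA-B, TAP1 and TAPBP in 3 each, HLA-E in 2, and HLA-C and B2M in 1 each. TAP2 fell in 1 and rose in 1.

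**Figure D3:**
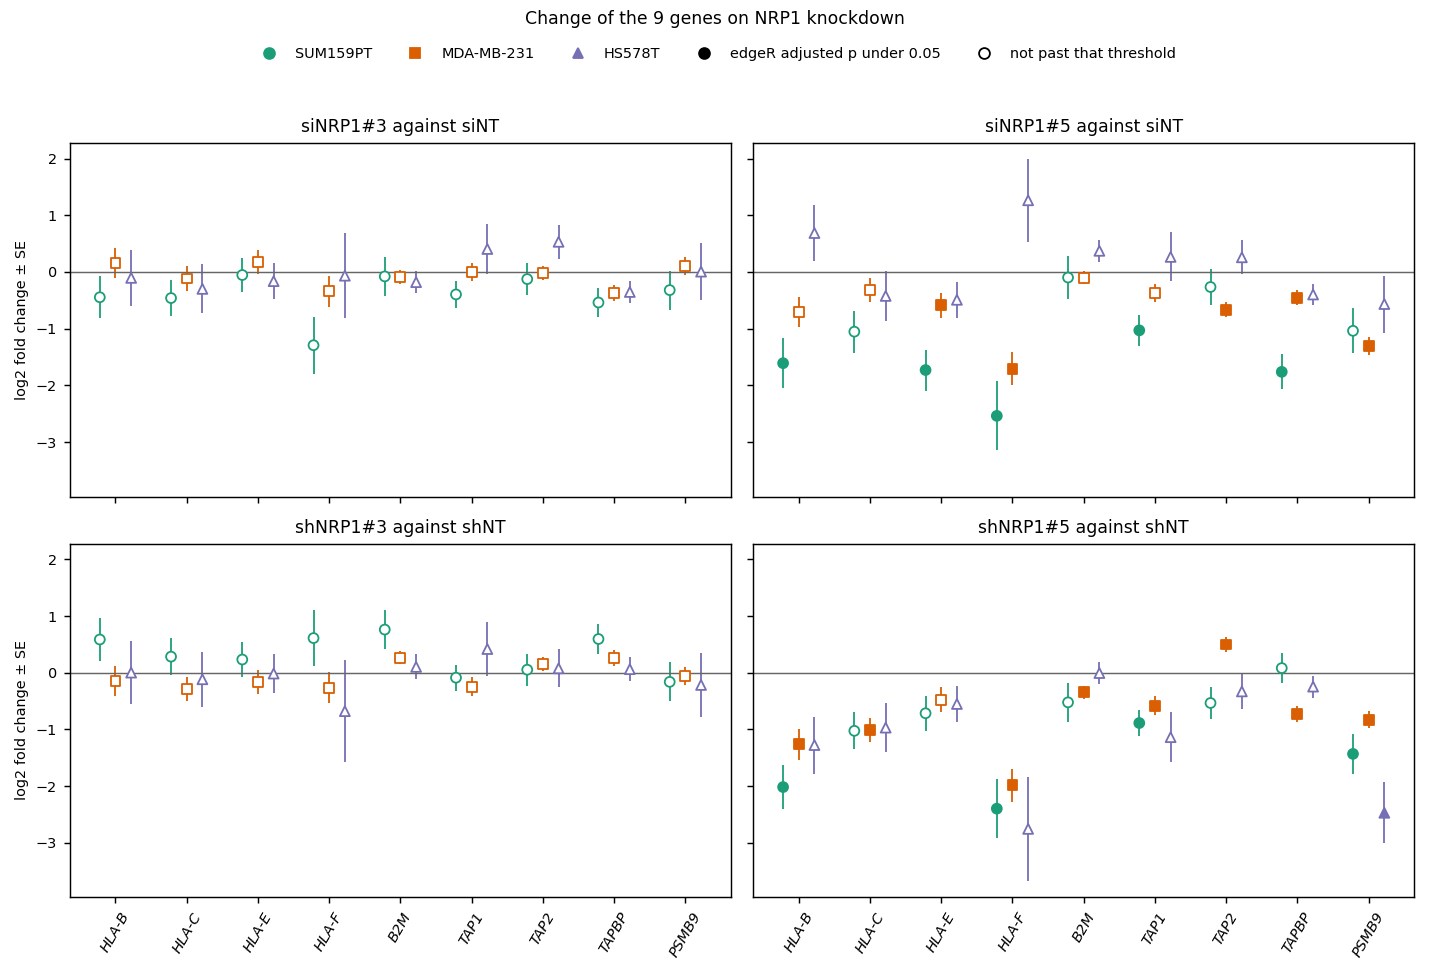
Log2 fold change ± SE of the 9 genes for each knockdown against its own control in the 3 cell lines, with filled symbols for an edgeR adjusted p under 0.05. No symbol is filled in the panels of #3, and in the panels of #5 every filled symbol but that of TAP2 in MDA-MB-231 shNRP1#5 lies below 0.

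In SUM159PT, heavy chain and peptide-loading genes were lower with siNRP1#5. In all, 5 of the 9 genes fell and 0 rose, against 8.89% of all genes that fell and 9% that rose. HLA-B stood at 586 and 293 CPM in the 2 knockdown libraries and at 1048, 2274 and 728 in siNT, a log2 change of -1.61 ± 0.44 (edgeR adjusted p = 0.0194). For HLA-E the levels were 206 and 150.4 against 540.3, 894 and 351 CPM, a change of -1.73 ± 0.36 (edgeR adjusted p = 0.00503). Both genes were lower in each knockdown library than in any control, and siNT replicate 2 was the highest control for both.

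HLA-F, the non-classical chain, showed the lowest ratio to control. Its levels were 26.7 and 10.4 CPM against 68.6, 208 and 48.5, or 17.2% of control in the fit (-2.54 ± 0.61 on the log2 scale, edgeR adjusted p = 0.0112). The tapasin gene TAPBP stood at 129 and 135 CPM against 471, 535 and 346, a log2 change of -1.76 ± 0.31 (edgeR adjusted p = 0.0018), with 2 close knockdown values well below all controls. TAP1 stood at 148 and 103 against 221, 350.3 and 202 CPM, again without overlap, and changed by -1.03 ± 0.27 (edgeR adjusted p = 0.0153).

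The remaining 4 genes did not pass. B2M was 5453 and 1690 CPM in the 2 siNRP1#5 libraries, one above and one below every control (4489, 4448 and 2670), a change of -0.10 ± 0.38. HLA-C changed by -1.05 ± 0.37 (edgeR adjusted p = 0.0598), PSMB9 by -1.04 ± 0.40 (0.0792) and TAP2 by -0.26 ± 0.32 (0.597). DESeq2 called 6 genes. In a model of only these 5 libraries none of the 9 passed (HLA-B adjusted p = 0.163, TAPBP 0.062), and without siNRP1#5 replicate 3, which leaves 1 knockdown library assumed to vary like the other groups, 2 did. HLA-B also no longer passed without siNT replicate 2 (0.0666). Without siNRP1#5 replicate 2 the change of B2M was -1.22 and passed (0.035).

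With the same sequence given as a hairpin, shNRP1#5, 4 of the 9 genes fell in SUM159PT and 0 rose, against 2.7% of all genes that fell and 3.24% that rose. HLA-B stood at 107, 86.5 and 104 CPM against 369, 441 and 423 in shNT, 24.7% of control (-2.02 ± 0.38, edgeR adjusted p = 0.00495). HLA-F stood at 5.33, 4.25 and 3.64 against 21.7, 27.2 and 22.4 CPM, a change of -2.40 ± 0.52 (edgeR adjusted p = 0.0127). The 3 hairpin libraries of either gene lay close together and far below the 3 controls. PSMB9 stood at 31.0, 20.4 and 16.4 against 64.1, 66.5 and 56.1 CPM (-1.43 ± 0.35, edgeR adjusted p = 0.0228), and TAP1 at 60.2, 49.7 and 65.0 against 101, 116 and 113.9 (-0.89 ± 0.23, edgeR adjusted p = 0.0328). HLA-C, at 77.1, 72.3 and 73.8 against 139.8, 167 and 157 CPM, did not overlap either, but missed the threshold (edgeR adjusted p = 0.078). Neither did HLA-E (-0.71 ± 0.31) nor B2M (-0.52 ± 0.34) pass, and TAPBP, which fell with the siRNA, was 183, 134 and 111 CPM against 147, 167 and 97.7, a change of 0.08 ± 0.26.

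Leaving out shNRP1#5 replicate 2 reduced these 4 calls to 1, and leaving out shNT replicate 1 or 2 reduced them to 2. TAP1 was no longer past the threshold without shNRP1#5 replicate 1 or 2 or any 1 shNT replicate, PSMB9 without shNRP1#5 replicate 2 or 3 or shNT replicate 1 or 2, and HLA-F without shNRP1#5 replicate 2 (adjusted p = 0.0648), while its change stayed at -2.37.

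**Figure D4:**
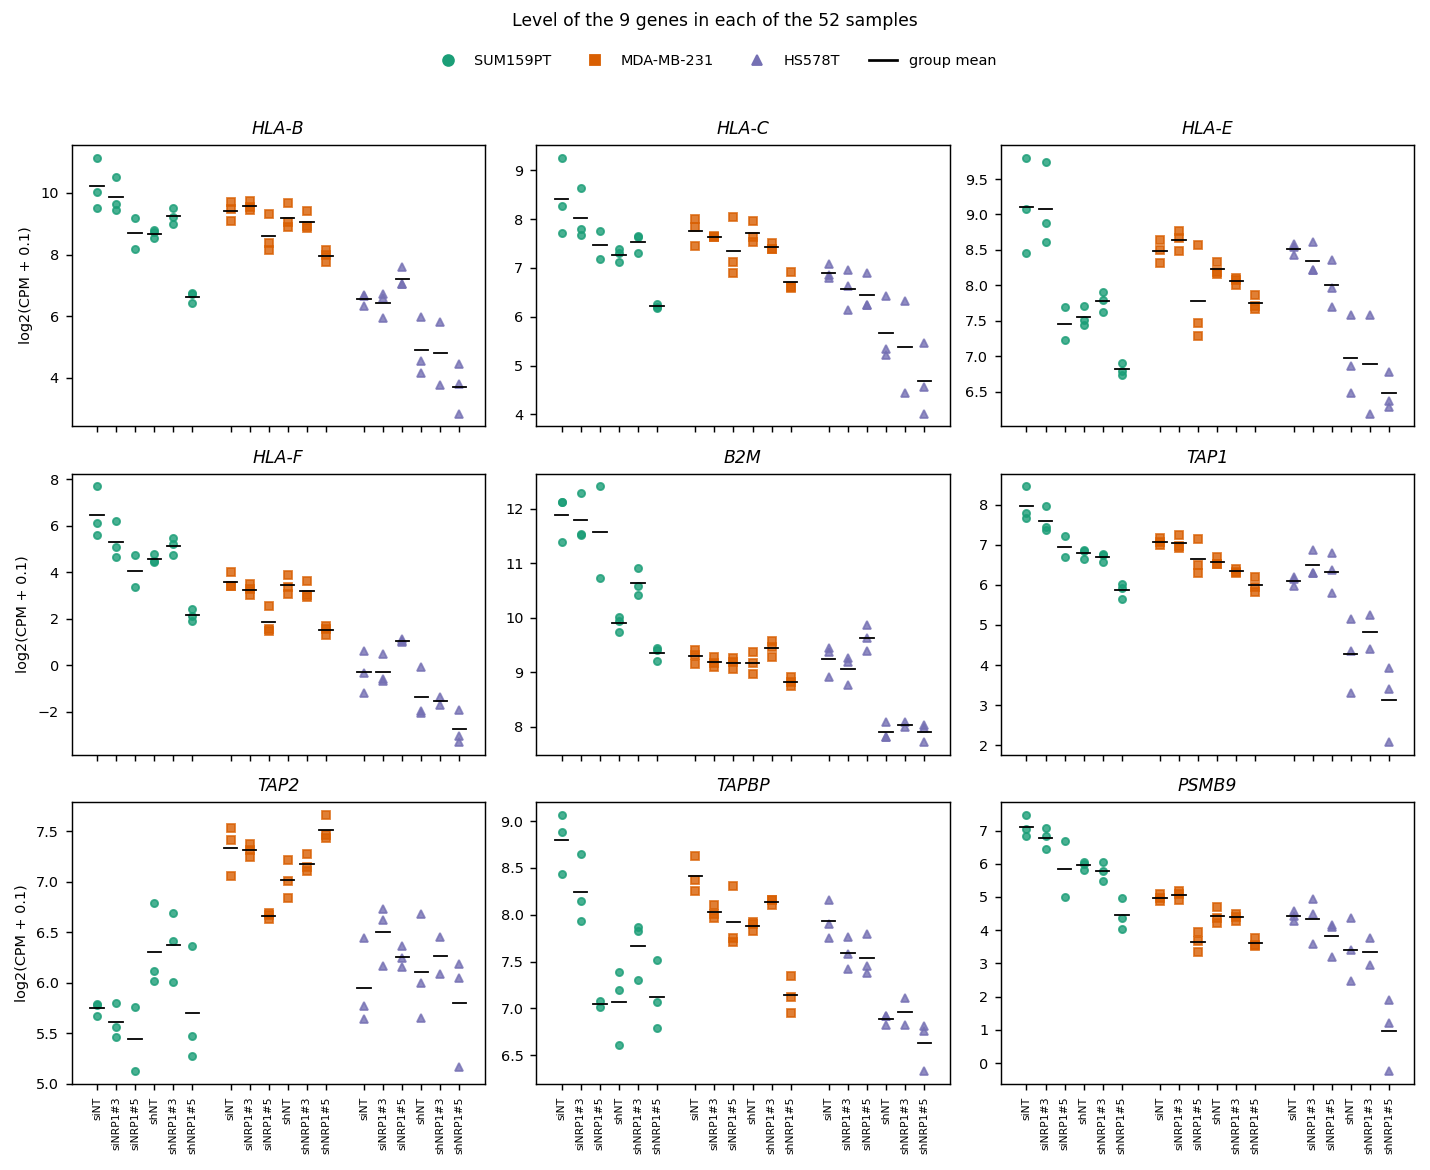
Level of each of the 9 genes in every sample, as log2(CPM + 0.1), by treatment within each cell line, with a line at each group mean. In SUM159PT and MDA-MB-231 the shNRP1#5 samples lie below the shNT samples for HLA-B, HLA-C and HLA-F, and HS578T lies far below the other lines for HLA-F.

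In MDA-MB-231, 5 of the 9 genes fell with siNRP1#5 and 0 rose, against 14.9% of all genes that fell and 14.4% that rose. PSMB9 stood at 10.1, 12.6 and 15.3 CPM against 29.2, 34.2 and 31.3 in siNT, a log2 change of -1.30 ± 0.16 (edgeR adjusted p = 5.44e-06). HLA-F stood at 2.66, 2.87 and 5.67 against 10.5, 10.5 and 15.9 CPM (-1.71 ± 0.29, edgeR adjusted p = 0.000226), and TAP2 at 102, 103 and 99.3 against 171, 185 and 133 (-0.66 ± 0.13, edgeR adjusted p = 0.000655). For these 3 genes no knockdown library reached the lowest control.

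For HLA-B and HLA-E, replicate 3 of siNRP1#5 stood apart. HLA-B was 282, 333 and 642 CPM against 544, 708 and 827, so that replicates 1 and 2 lay below all controls and replicate 3 within their range, and the gene did not pass (-0.71 ± 0.27, edgeR adjusted p = 0.0546). HLA-E, at 155, 178 and 379 against 319, 360.1 and 400.2 CPM, passed narrowly (-0.59 ± 0.22, edgeR adjusted p = 0.0499), and TAPBP passed as well (-0.45 ± 0.14, edgeR adjusted p = 0.0177). NRP1 stood at 1.85 CPM in replicate 3 and at 3.21 and 2.29 in replicates 1 and 2. The cause of the HLA-B and HLA-E levels in replicate 3 was not tested. Without replicate 3, 8 of the 9 genes fell. Without replicate 1 or 2, or without siNT replicate 3, 3 did, since HLA-E and TAPBP were lost, and HLA-E was lost without any 1 of the siNT replicates too. A model of these 6 libraries alone also called 3, DESeq2 called 4, the replicate block 6 (HLA-B adjusted p = 0.0499) and limma on TPM 8. The same replicate numbers deviated together in these groups (r of 0.499 to 0.539).

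With shNRP1#5, 7 of the 9 genes fell in MDA-MB-231 and 1 rose, against 11.9% of all genes that fell and 8.79% that rose. HLA-B stood at 282, 251 and 218 CPM against 809, 472 and 528 (-1.26 ± 0.27, edgeR adjusted p = 0.00362), and HLA-C at 121, 95.6 and 97.8 against 249, 185 and 199 (-1.01 ± 0.22, edgeR adjusted p = 0.00337). HLA-F stood at 3.10, 2.88 and 2.36 CPM against 14.6, 8.30 and 10.1, 25.4% of control (-1.98 ± 0.29, edgeR adjusted p = 0.000172). In all 3 genes the hairpin and control libraries did not overlap. The peptide-loading genes TAPBP (162, 139 and 124 against 228, 238 and 243 CPM, -0.73 ± 0.14), PSMB9 (-0.83 ± 0.16), TAP1 (-0.58 ± 0.16) and the light chain B2M (-0.35 ± 0.12, edgeR adjusted p = 0.045) fell as well. HLA-E did not pass (-0.47 ± 0.22, edgeR adjusted p = 0.13), but it did in a model of these libraries alone (0.000353) and without the filter on low counts (0.00357).

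TAP2 moved the other way, from 149, 128 and 115 CPM in shNT to 172, 202 and 176 in shNRP1#5, every hairpin library above every control (0.50 ± 0.13, edgeR adjusted p = 0.00984). Its call was lost without shNRP1#5 replicate 2 (adjusted p = 0.0605), without shNT replicate 3 (0.0701) and with limma on TPM (0.074). Without shNRP1#5 replicate 2 the count of calls for this knockdown was 5 in place of 8, as B2M and TAP1 were lost too. B2M was also lost without shNRP1#5 replicate 1 or 3 or shNT replicate 1 or 3, and with library totals only (0.0583), and TAP1 without shNRP1#5 replicate 3 or shNT replicate 1.

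In HS578T, 1 of the 9 genes fell with shNRP1#5, PSMB9, against 0.671% of all genes that fell and 0.275% that rose. PSMB9 was 3.62, 2.21 and 0.743 CPM against 20.5, 10.5 and 5.44 in shNT, without overlap (-2.47 ± 0.54, edgeR adjusted p = 0.0365). An unadjusted p under 0.05 was found for 5 genes, and DESeq2 called 2, PSMB9 and HLA-F. The PSMB9 call was lost in a model of these libraries alone (adjusted p = 0.0992), with library totals only (0.0634), with limma on TPM (0.0874), without the siNRP1#5 libraries of this line (0.0653), and without shNRP1#5 replicate 2 or 3 or shNT replicate 1 or 2 (0.191, 0.118, 0.124 and 0.11).

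Other genes in HS578T leaned the same way without passing. HLA-B was 21.7, 7.03 and 13.9 CPM against 62.7, 17.5 and 23.5 (-1.28 ± 0.50, edgeR adjusted p = 0.202), TAP1 was 15.0, 10.5 and 4.10 against 35.3, 20.1 and 9.83 (-1.14 ± 0.44, edgeR adjusted p = 0.198), and HLA-C changed by -0.97 ± 0.44 (edgeR adjusted p = 0.244). In both groups replicate 1 was the highest library for HLA-B and TAP1, and the groups overlapped. The replicate numbers pair these libraries, and within each number both genes were lower with shNRP1#5. Neither passed with the replicate block. HLA-F was at 0.166, 0.0205 and 0 CPM against 0.839, 0.153 and 0.139, too near 0 in this line for a ratio to be read. B2M did not pass (-0.00 ± 0.20).

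With siNRP1#5 in HS578T, 0 of the 9 genes passed by edgeR, 0 had an unadjusted p under 0.05 and DESeq2 called 0, against 10.1% of all genes that rose and 8.53% that fell. As deposited, HLA-B stood above its controls, at 193, 132 and 131 CPM against 100.1, 80.3 and 102 (0.69 ± 0.50), and so did HLA-F, at 2.12, 1.98 and 1.88 against 0.341, 0.701 and 1.42. The subtraction took 100% of the HLA-B reads of replicate 2 and of the HLA-F reads of replicates 1 and 2, so no change is given for these genes after it. After subtraction the changes of HLA-C (-0.96), HLA-E (-0.56), PSMB9 (-0.95) and TAPBP (-0.66) were negative. Of the 9 genes, only TAPBP passed after subtraction (edgeR adjusted p = 0.0482), with B2M at 0.48 and TAP1 at 0.11. TAPBP as deposited was 222, 166 and 175 CPM against 239, 215 and 286, a change of -0.40 ± 0.19 (edgeR adjusted p = 0.165). The transcript HLA-B-251 made up 17.9% of HLA-B in these libraries, against 7.36% in HS578T siNT, 14.3% in HS578T siNRP1#3, 10.4% in HS578T shNT and 17.8% in MDA-MB-231 siNT. As deposited, HLA-B passed as higher in a model of these libraries alone (adjusted p = 0.0484), and HLA-F did with limma on TPM (0.034).

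With sequence #3, none of the 9 genes passed in the edgeR fit of any line, where DESeq2 called 0 as well. In SUM159PT, siNRP1#3 left 0 of 9 past the threshold (1 with an unadjusted p under 0.05, 0 by DESeq2), against 3.16% of all genes that rose and 5.5% that fell, and shNRP1#3 left 0 (2 unadjusted, 0 by DESeq2), against 0.339% and 1.06%. The HLA-B levels with siNRP1#3 were 803, 1465 and 701 CPM, overlapping the controls. HLA-F with siNRP1#3 was 34.4, 72.9 and 25.4 CPM, a change of -1.29 ± 0.50 (edgeR adjusted p = 0.12) that passed with the replicate block (adjusted p = 0.0348), the numbers pairing these libraries. With shNRP1#3, HLA-B was 505, 735 and 598 CPM and B2M 1372, 1939 and 1525, all above their controls, with changes of 0.59 ± 0.37 and 0.76 ± 0.34 that did not pass (edgeR adjusted p = 0.555 and 0.361).

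In MDA-MB-231, siNRP1#3 left 0 of 9 past the threshold by edgeR (1 unadjusted, 0 by DESeq2) although 11.4% of all genes rose and 14.3% fell, and shNRP1#3 left 0 (1 unadjusted, 0 by DESeq2), against 1.46% and 2.19%. TAPBP came nearest with siNRP1#3, at 257, 249 and 275 CPM against 304, 330 and 394, all lower than any control (-0.37 ± 0.14, edgeR adjusted p = 0.0519), and it passed with limma on TPM (0.0497) and in a model of these libraries alone (0.0286). With shNRP1#3 it lay the other way, at 275 to 284.9 CPM against 227.5 to 242.7 in shNT. There it passed as higher only in a model of the hairpin and shNT libraries alone (0.26, edgeR adjusted p = 0.0335). In HS578T, siNRP1#3 left 0 (0 unadjusted, 0 by DESeq2), against 2.31% that rose and 2.34% that fell, and shNRP1#3 left 0 (0 unadjusted, 0 by DESeq2), against 0.00509% and 0.0305%. The last comparison has 2 knockdown libraries and called 7 genes in all.

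The difference between the sequences was tested directly. In SUM159PT, 6 of the 9 genes were lower with shNRP1#5 than with shNRP1#3, against 8.71% of all genes called in either direction. HLA-B differed by -2.60 ± 0.39 (edgeR adjusted p = 0.000526), HLA-F by -3.01 ± 0.54, HLA-C by -1.31 ± 0.33, B2M by -1.28 ± 0.34, PSMB9 by -1.27 ± 0.35 and TAP1 by -0.80 ± 0.23, and 2 to 5 of the 9 genes passed when 1 library was left out. HLA-B and HLA-F passed in all those fits and TAP1 in none of them, while HLA-C, B2M and PSMB9 were each lost in 4 or 5 of the 6. With siRNA, 2 genes were lower with #5 than with #3, HLA-E (-1.68 ± 0.36) and TAPBP (-1.22 ± 0.30), against 29.7% of all genes. There, library totals only and limma on TPM called 7 genes each.

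In MDA-MB-231, 5 genes were lower with siNRP1#5 than with siNRP1#3, PSMB9 (-1.41 ± 0.16), HLA-F (-1.37 ± 0.29), HLA-B (-0.87 ± 0.27), HLA-E (-0.76 ± 0.22) and TAP2 (-0.65 ± 0.13), where 39% of all genes differed. With the hairpins, 6 were lower with shNRP1#5 than with shNRP1#3, HLA-F (-1.72 ± 0.29), HLA-B (-1.12 ± 0.27), TAPBP (-0.99 ± 0.14), PSMB9 (-0.77 ± 0.16), HLA-C (-0.72 ± 0.21) and B2M (-0.61 ± 0.12), where 14.2% of all genes differed. When 1 library was left out, the siRNA difference of HLA-B was lost without siNRP1#5 replicate 1 or 2 or siNRP1#3 replicate 3, and that of HLA-E without siNRP1#5 replicate 1 or 2. The hairpin difference of HLA-C was lost in 5 of the 6 fits, and that of HLA-B without shNRP1#3 replicate 1 or shNRP1#5 replicate 3. In HS578T, 0 differed between the siRNAs (1 unadjusted, 1 by DESeq2, B2M), against 18.1% of all genes, and 0 between the hairpins (3 unadjusted, 1 by DESeq2, PSMB9), against 0.544%. B2M in HS578T stood at 669.9, 787 and 935 CPM with siNRP1#5 and 580, 613 and 434 with siNRP1#3, without overlap. It passed after subtraction of MDA-MB-231 reads from siNRP1#5 (edgeR adjusted p = 0.0349). That subtraction left in the SUM159PT share of 6.74% in siNRP1#5 replicate 2 and the MDA-MB-231 share of 1.94% to 6.70% in siNRP1#3. B2M stood at 3869 CPM in SUM159PT siNT, and the part of these reads in the difference was not tested.

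Since siNRP1#5 and shNRP1#5 share a sequence, their effects were compared with each other. In SUM159PT the effect differed in 1 of the 9 genes, TAPBP, which was lower with the siRNA by a further -1.85 ± 0.40 on the log2 scale (edgeR adjusted p = 0.0288), against 2.51% of all genes. In MDA-MB-231 it differed in TAP2, which fell with the siRNA and rose with the hairpin, a difference of -1.16 ± 0.18 (edgeR adjusted p = 0.000146), against 23.7% of all genes. In HS578T it differed in 0 genes (4 unadjusted, 1 by DESeq2, HLA-F), against 0.854%. The siRNA arm of that test holds the libraries with reads assigned to MDA-MB-231. Effects of one knockdown were also tested for equality over the 3 lines. With siNRP1#5 they differed for HLA-F, TAPBP and HLA-B (edgeR adjusted p = 0.00118, 0.00166 and 0.0267), against 18.2% of all genes. After subtraction TAPBP still differed (edgeR adjusted p = 0.0122), and for HLA-F and HLA-B the adjusted p was 0.742 and 0.79. The subtraction took 100% of the HLA-F reads of replicates 1 and 2 and of the HLA-B reads of replicate 2. For HLA-F and HLA-B the test after it therefore cannot decide whether the lines differ. For siNRP1#3 0 of 9 differed, against 3.42% of all genes, and for shNRP1#3 and shNRP1#5 0 of 9, against 0.747% and 3.81%.

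Other class I heavy chains and class I-like molecules formed a list of 8 genes. Of the list, 3 of 8 fell with siNRP1#5 in SUM159PT, where 8.89% of all genes fell. HFE, an iron-regulating class I-like gene, led them (-3.68 ± 0.40), with MR1 and MICA. In MDA-MB-231 3 of 6 fell and 1 rose with siNRP1#5, where 14.9% of all genes fell and 14.4% rose. There HFE changed by -3.22 ± 0.20 and the stress ligand MICA by -2.16 ± 0.15. With shNRP1#5, 5 of 6 fell in this line, where 11.9% of all genes fell. The list medians were -0.94 for siNRP1#5 and -0.43 for shNRP1#5 in SUM159PT and -0.61 and -0.70 in MDA-MB-231, where the medians of all genes lay between 0.01 and 0.03. In HS578T 0 of 6 moved with shNRP1#5, where 0.671% of all genes fell and 0.275% rose. With siNRP1#5, 1 fell (HFE) and 1 rose (MICB), where 8.53% of all genes fell and 10.1% rose. MICB stood at 3.27 TPM in HS578T controls and at 52.4 TPM in MDA-MB-231 controls, and the part of the MDA-MB-231 reads in this rise was not tested.

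Of 6 other immunoproteasome and PA28 genes, PSMB8 (LMP7), the partner of PSMB9, fell with shNRP1#5 in SUM159PT (-1.12 ± 0.25, edgeR adjusted p = 0.0126) and in HS578T (-1.68 ± 0.34, 0.0294), and with siNRP1#5 in MDA-MB-231 (-0.37 ± 0.13, 0.0433). PSMB10, the remaining inducible catalytic subunit, fell with siNRP1#5 in MDA-MB-231 (-0.48 ± 0.17). The proteasome activator genes PSME1 and PSME2 fell with shNRP1#5 in SUM159PT, with log2 changes of -0.95 and -1.002. POMP, the assembly chaperone, rose with siNRP1#5 in all 3 lines, by 0.63 in MDA-MB-231, 0.86 in HS578T and 1.11 in SUM159PT. Of all genes, 14.4%, 10.1% and 9% rose there. The part of the MDA-MB-231 reads in the HS578T value was not tested. The constitutive subunit PSMB6 rose with siNRP1#5 in SUM159PT (0.82) and MDA-MB-231 (0.41).

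Of 7 chaperone and peptide-trimming genes, 3 fell in SUM159PT and 5 in MDA-MB-231 with siNRP1#5, with none rising, where 8.89% and 14.9% of all genes fell. The trimming aminopeptidase ERAP1 changed by -1.77 and -0.58, the tapasin relative TAPBPL by -1.82 and -1.21, and calnexin (CANX) by -0.79 and -0.59 in the respective lines. With siNRP1#3, 3 and 5 of the 7 fell in these lines, among them ERAP2 (-1.80 and -1.15) and PDIA3, a partner of tapasin (-1.06 and -0.58), where 5.5% and 14.3% of all genes fell. With shNRP1#5, 0 of 7 fell in SUM159PT and 2 in MDA-MB-231, where 2.7% and 11.9% of all genes fell. In HS578T the chaperone HSPA5 rose with siNRP1#5 (2.39) and siNRP1#3 (1.26), where 10.1% and 2.31% of all genes rose. The part of the MDA-MB-231 reads in the rise with siNRP1#5 was not tested. From a list of 8 ubiquitin and trafficking genes, SUSD6 fell with siNRP1#5 in all 3 lines (-0.69 in HS578T, -1.38 in MDA-MB-231 and -1.99 in SUM159PT). Of all genes, 8.53%, 14.9% and 8.89% fell there. SUSD6 is 1 gene of this list, and the others are not reported here. Its HS578T value comes from the libraries with MDA-MB-231 reads.

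Among 11 transcriptional regulators of class I genes, RELA, IRF2 and RFX5 were among those that fell with #5. With siNRP1#5, 5 of 11 fell in each line, where 8.89%, 14.9% and 8.53% of all genes fell in SUM159PT, MDA-MB-231 and HS578T. With shNRP1#5, 3, 5 and 1 fell in the same order, where 2.7%, 11.9% and 0.671% of all genes fell, and none rose with either. The NF-kappaB subunit RELA, singled out after its values were seen, fell in 5 of the 6 comparisons of #5, all but siNRP1#5 in SUM159PT (edgeR adjusted p = 0.104), and with shNRP1#5 changed by the values that follow (-1.38 ± 0.21, -0.39 ± 0.12 and -0.88 ± 0.18 in SUM159PT, MDA-MB-231 and HS578T), and IRF2 fell with both forms of #5 in SUM159PT (-1.58 ± 0.23 and -0.94 ± 0.20) and MDA-MB-231 (-1.16 ± 0.14 and -0.63 ± 0.14). RFX5, a subunit of the factor that binds class I promoters, fell with siNRP1#5 in SUM159PT (-1.61) and MDA-MB-231 (-1.31). STAT2, of the interferon-activated complex, fell with siNRP1#5 in SUM159PT (-2.65) and HS578T (-1.58, in the libraries with MDA-MB-231 reads) and with shNRP1#5 in MDA-MB-231 (-0.90).

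NLRC5, the class I transactivator, did not pass in any of the 12 knockdowns. Its changes with siNRP1#5 were -0.66 ± 0.25, 0.01 ± 0.18 and -0.57 ± 0.33 in SUM159PT, MDA-MB-231 and HS578T, and with shNRP1#5 -0.50 ± 0.22, -0.40 ± 0.18 and -0.63 ± 0.33. IRF1 fell with shNRP1#5 in SUM159PT (-0.94 ± 0.25, edgeR adjusted p = 0.035). With siNRP1#3 in MDA-MB-231, 4 regulators rose, among them IRF9 (0.86) and STAT2 (0.75), and 2 fell, while none of the 9 class I genes passed. Of all genes, 11.4% rose and 14.3% fell there. In SUM159PT controls, where class I was lower in shNT than in siNT, IRF1 (-1.27), STAT2 (-0.92) and NLRC5 (-0.82) were lower in shNT too.

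**Figure D5:**
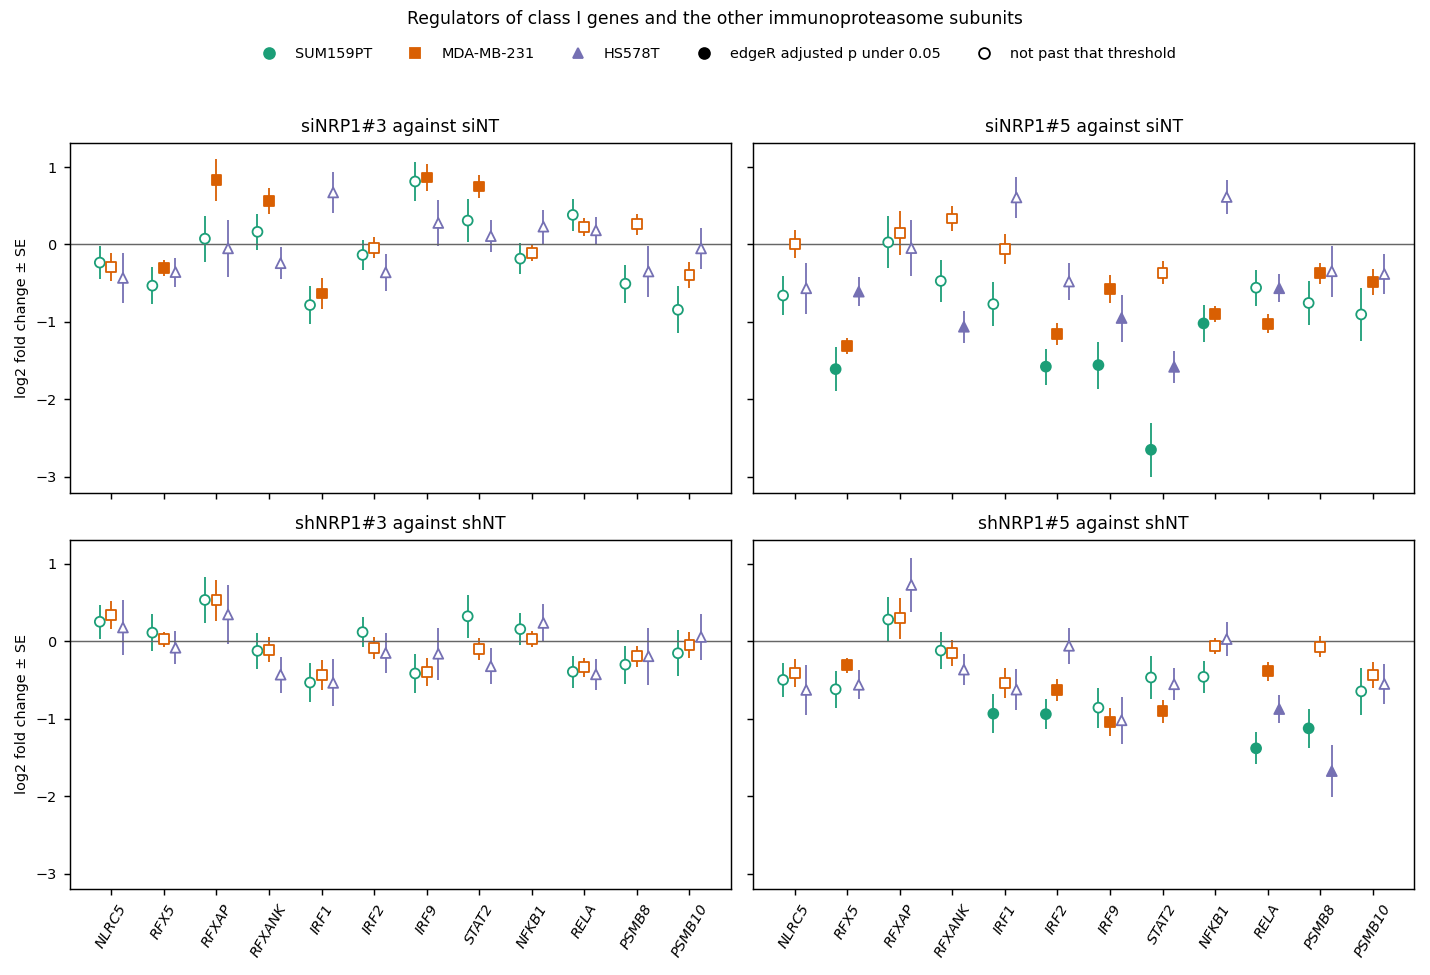
Log2 fold change ± SE of class I regulators, PSMB8 and PSMB10 for each knockdown against its own control in the 3 cell lines, with filled symbols for an edgeR adjusted p under 0.05. NLRC5 is open in all 4 panels, and in both panels of #5 every filled symbol lies below 0.

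Interferon-stimulated genes formed a list of 33, of which 31 were tested in SUM159PT and MDA-MB-231 and 29 in HS578T. In SUM159PT 17 fell with siNRP1#5 and 5 with shNRP1#5 (all genes 8.89% and 2.7%), led by OAS1 (-3.45) and OASL (-2.83). In MDA-MB-231 7 fell and 2 rose with siNRP1#5 and 18 fell with shNRP1#5 (fell among all genes 14.9% and 11.9%), led by IFI44L (-1.45) and BST2 (-2.94). The list medians were -1.27, -0.82, -0.22 and -0.85 in that order. With siNRP1#3, 5 fell in SUM159PT and 12 in MDA-MB-231, where none of the 9 genes passed (all genes 5.5% and 14.3%). In HS578T 13 rose and 2 fell with siNRP1#5 (all genes 10.1% and 8.53%), led by HERC5 (4.08) and OAS3 (3.80), and 3 fell with shNRP1#5 (all genes 0.671%). Both genes were near 0 in HS578T controls (0.0533 and 0.332 TPM) and expressed in MDA-MB-231 controls (15.3 and 14.5 TPM), and the part of the MDA-MB-231 reads in these rises was not tested. The interferon genes IFNB1, IFNA1 and IFNG were at 0 TPM in all controls, while IFNL1 reached 0.42 TPM in an MDA-MB-231 control and 0.62 TPM in a SUM159PT control, and IFNE 0.25 TPM in an HS578T control. Of 5 interferon receptor genes tested, 4 fell with siNRP1#5 in SUM159PT and 3 in MDA-MB-231, where 8.89% and 14.9% of all genes fell. IFNLR1 (-1.80 and -1.62) and IFNAR2 (-1.56 and -1.26) led them.

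The genes whose levels most resembled those of the 9 were sought over the 52 samples after subtracting the mean of each line, among 16331 genes, as a description. All points share the libraries, their depth and the knockdown groups. HLA-B, HLA-C and HLA-F resembled one another (Pearson r = 0.952 for HLA-B and HLA-C and 0.938 for HLA-B and HLA-F). PSMB9 most resembled PSMB8 (0.937), and TAP1 was nearest to SDHAF4 (0.893), RELB (0.889) and PSMB9 (0.889). HLA-E was nearest to ST3GAL3 (0.924), TAPBP to LRP10 (0.9) and B2M to COMMD6 (0.923). Over the 36 pairs of the 9 genes the median r was 0.786 and the lowest -0.198, and TAP2 was the gene apart, its nearest being KLHL21 (0.817) and its r with the other 8 lying between -0.198 and 0.111. By Spearman's rank correlation the nearest gene became TAP1 for HLA-E, HLA-E for TAP1, NCSTN for TAPBP and MIF4GD for PSMB9, and without the HS578T siNRP1#5 libraries that of TAP1 became RELB.

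Transcripts were described from the isoform percentages. Across the 18 groups the group means of HLA-E-201 ranged from 82.1% to 91.1% of the gene, those of B2M-211 from 76.4% to 86.2%, those of PSMB9-207 from 83.6% to 92.7% and those of HLA-B-249 from 72.4% to 90.2%. TAP1-201 ranged from 58.4% to 74.4%, and HLA-F-217 from 0% to 78.6%, where HLA-F itself is near 0 in HS578T. TAP2-201 ranged from 2.88% in HS578T shNT to 40.3% ± 6.7 (SD, n = 3) in SUM159PT siNRP1#3, where siNT held 25.3% ± 3.91 (n = 3) and siNRP1#5 17.7% ± 8.8 (n = 2). TAPBP-234 ranged from 25.8% to 57.5% across groups. These shares were not tested.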

How the data were processed

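Stranded polyA RNA-seq libraries were sequenced in paired ends. The authors trimmed reads with Trim Galore 0.6.5, checked them with FastQC 0.11.9, aligned them to GRCh38 with STAR 2.7.2b and quantified genes and transcripts with RSEM 1.3.3, which gave the deposited expected counts, TPM and isoform percentages. RSEM shares reads that fit several genes or alleles among them, so values of the HLA genes are estimates. Transcript-level counts and TPM were not used here.

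Expected counts were rounded and tested in R 4.3.3 with edgeR 4.0.16 (filterByExpr, TMM, robust quasi-likelihood fit), with 1 model of 6 group means per cell line and 1 model of all 18 groups for comparisons between lines. Genes tested numbered 20067 in SUM159PT, 18800 in MDA-MB-231, 19661 in HS578T and 23416 over all groups. P-values were adjusted by Benjamini-Hochberg over all genes tested, with a threshold of 0.05, and the SE of a log2 fold change is its size over the square root of F. DESeq2 1.42.0, limma 3.58.1 on log2(TPM + 1), other scalings, no filter, the replicate block, single comparisons, leaving out each library and subtraction of MDA-MB-231 reads were the alternatives. Subtraction was also applied to the test of equality between lines after the data were seen. Libraries held 25310443 to 72003442 counts, so counting error was small except for HLA-F in HS578T and for PSMB9 in its lowest library, with 50 counts. No pair of replicates agreed within counting noise.

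Same-numbered libraries deviated together, with r over 0.1 in each of 3 pairs, in 6 of 15 comparisons with a control (SUM159PT siNRP1#3 and shNRP1#3, MDA-MB-231 siNRP1#5, shNRP1#3 and shNT against siNT, and HS578T shNRP1#5). SUM159PT siNRP1#5 and HS578T shNRP1#3 had only 2 pairs each with their control, so this rule could not be met there. The pairing comes from the data, since the labels give only the numbers.

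MDA-MB-231 reads in HS578T were estimated from genes at or under 0.5 CPM in every control of one line and at 20 CPM or more in every control of the other. Named beside the 9 genes are NLRC5, IRF1, PSMB8 and PSMB10, up to 3 genes of each list with the largest change past the threshold in a comparison, and genes from the 3 most correlated with each of the 9. Some genes that this rule names are not reported here, though they count in their lists. The 9 genes and the lists were chosen with earlier results of these data known. On counts simulated for SUM159PT siNRP1#5 against siNT (19270 genes), 34% of 200 genes changed by 1.5 on the log2 scale were called, and 3 unchanged genes were. For changes of the same size, the interaction test in SUM159PT called 3.5% of 200 genes. The equality test of siNRP1#5 over the 3 lines called 25.5%. A gene not called by either of these tests is therefore not shown to have equal effects.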

Additional observations from a re-analysis of the deposited data

Results flagged for a closer look

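Effects of the same sequence differed between delivery as siRNA and as hairpin for 2 of the 9 genes by a test of the difference itself. In SUM159PT this was TAPBP (edgeR adjusted p = 0.0288), at -1.76 with siNRP1#5 and 0.08 with shNRP1#5. In MDA-MB-231 it was TAP2 (edgeR adjusted p = 0.000146), at -0.66 and 0.50. The same test called 2.51% of all genes in SUM159PT and 23.7% in MDA-MB-231.

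The effect of siNRP1#5 differed between the 3 cell lines for HLA-B, HLA-F and TAPBP (edgeR adjusted p = 0.0267, 0.00118 and 0.00166), as it did for 18.2% of all genes. With the reads assigned to MDA-MB-231 subtracted from the HS578T siNRP1#5 libraries, the edgeR adjusted p-values were 0.79, 0.742 and 0.0122, so TAPBP remained past the threshold. The subtraction took 100% of the HLA-B reads of replicate 2 and of the HLA-F reads of replicates 1 and 2. For HLA-B and HLA-F the test after it cannot decide whether the lines differ. That subtraction was added to the equality test after the data were seen.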

How the results depend on the processing

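No value of the 9 genes that was past the threshold in the fit reported changed direction under any alternative run. HLA-B and HLA-F in HS578T siNRP1#5 were higher past the threshold in 1 alternative each. The subtraction of MDA-MB-231 reads took 100% of their reads in 1 and 2 libraries, so no direction is read for them after it. Counts of the 9 genes past the threshold moved as follows. With DESeq2, 1 gene differed in the HS578T interaction and in HS578T shNRP1#5 against shNRP1#3, 2 in HS578T shNRP1#5 against shNT and 1 in HS578T siNRP1#5 against siNRP1#3. Without the filter on low counts, 4, 3, 5 and 1 genes passed in these comparisons, 3 in the MDA-MB-231 interaction, 1 each in MDA-MB-231 and SUM159PT siNRP1#3, 4 in SUM159PT siNRP1#5 against siNRP1#3, and 5 and 1 in the equality tests of siNRP1#5 and shNRP1#5. With only the groups compared, 0 passed in HS578T shNRP1#5 and in SUM159PT siNRP1#5, 3 in MDA-MB-231 siNRP1#5, and 1 each in HS578T siNRP1#5 against siNT and against siNRP1#3, MDA-MB-231 siNRP1#3 and MDA-MB-231 shNRP1#3. With limma, 0 passed in HS578T shNRP1#5 and MDA-MB-231 shNT against siNT, 1 in HS578T siNRP1#5 and in MDA-MB-231 siNRP1#3, 8 in MDA-MB-231 siNRP1#5 and 7 in SUM159PT siNRP1#5 against siNRP1#3. With library totals only, the last count was 7 and that of HS578T shNRP1#5 was 0. Without the HS578T siNRP1#5 libraries the latter was 0 too. With MDA-MB-231 reads subtracted, 1 gene passed in HS578T siNRP1#5 against siNT, 1 against siNRP1#3 and 1 in the equality test of siNRP1#5. Beyond the smaller number of libraries or genes in some of these fits, the cause was not tested.

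The replicate block gave 7 genes in HS578T shNT against siNT, 5 in SUM159PT siNRP1#5 against siNRP1#3, 7 in SUM159PT siNRP1#5 against siNT, and 1 each in SUM159PT siNRP1#3, the HS578T interaction and both HS578T comparisons of #5 with #3. The numbers pair the libraries in SUM159PT siNRP1#3 and do not in HS578T shNT against siNT. SUM159PT siNRP1#5 against siNT has only 2 pairs (r of 0.076 and 0.444), so the rule of 3 pairs cannot decide there. For the comparisons of #5 with #3 and the interaction the pairing was not checked. In the paired comparisons the block otherwise added HLA-B in MDA-MB-231 siNRP1#5 and TAP2 in MDA-MB-231 shNT against siNT and changed no other call.

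With 1 library left out, the counts ranged as follows. In HS578T they were 0 to 2 for shNRP1#5, 0 to 1 for shNRP1#5 against shNRP1#3, 3 to 6 for shNT against siNT and 0 in every fit of the others. In MDA-MB-231 they were 5 to 8 for shNRP1#5, 4 to 6 for it against shNRP1#3, 3 to 8 for siNRP1#5, 3 to 7 for it against siNRP1#3, 1 to 4 for shNT against siNT, 0 to 1 for siNRP1#3 and 0 for shNRP1#3. In SUM159PT they were 1 to 4 for shNRP1#5, 2 to 5 for it against shNRP1#3, 2 to 7 for siNRP1#5, 2 to 6 for it against siNRP1#3, 4 to 8 for shNT against siNT and 0 for both comparisons of #3. Between lines they were 7 to 9, 7 to 8 and 4 to 5 for HS578T against MDA-MB-231, HS578T against SUM159PT and SUM159PT against MDA-MB-231. Libraries were not left out in turn for the interaction and equality tests. Where a group was left with 1 library, that library is assumed to vary like the other groups. Depth limits HLA-F in HS578T, where 7 libraries held fewer than 10 counts. The subtraction rests on 3 genes.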
